A study of Mus musculus with 6 samples.

Results

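The genes described here are 10 transcripts that mark Langerhans cells, other leukocytes and antigen presentation by major histocompatibility complex (MHC) class II: Cd207, H2-Aa, H2-Ab1, H2-Eb1, H2-DMa, Cd74, Csf1r, Ptprc, Cd68 and Lyz2. They were found by symbol in the deposited table of 19618 genes, and all 10 were present. Expression was measured by RNA sequencing of polyadenylated RNA from tail keratinocytes of mice aged 4 months, in 2 groups of 3 libraries. The knockout mice carried K14cre, which expresses Cre recombinase from a keratin promoter active in the basal cells of stratified epithelium, and had both Gpr161 alleles floxed. The controls carried no K14cre per the labels. One control had 2 floxed alleles and the others were heterozygous, so floxed alleles were present in all 6 samples. Strain and sex are not given in the labels, and nothing was sorted: epidermis was taken off the tail with trypsin and dispase, and the strained cell suspension was lysed. Libraries are called by the tag in their column names. The knockouts are DE679, DE685 and DE688, the controls are DE680, DE684 and DE689, and which control had 2 floxed alleles is not known from the names. The labels do not say that the libraries of a group came from separate mice, so p-values measure the spread between these libraries.

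Langerhans cells are the resident antigen-presenting cells of the epidermis. They descend from blood-forming precursors, not from keratinocytes, and they depend on the receptor Csf1r and its keratinocyte-made ligand Il34. They take up antigen, load peptides onto class II molecules and carry them to lymph nodes. A class II molecule is a pair of an alpha and a beta chain. Cd74, the invariant chain, holds the pair and guides it to the endosome, and the DM heterodimer, of which H2-DMa is a subunit, exchanges the remnant of Cd74 for peptide. Transcription of these genes is known to depend on the coactivator Ciita, which binds to proteins of the RFX and NF-Y families seated on conserved promoter elements called the X and Y boxes.

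Promoters of class II genes are shown first, and their part in the levels described below was not tested. RefSeq promoter windows (GRCm38.p6, 250 bases before to 50 bases after the start) were matched for Cd207, H2-Aa, H2-Eb1, H2-DMa, Cd68, Lyz2 and Ptprc, 7 of the 10 genes. H2-Ab1, Cd74 and Csf1r were unmatched. Windows were searched on both strands for CTNGNAAC, letters of the X box, followed after 20 to 30 bases by GATTGG, letters of the Y box that hold the inverted CCAAT sequence. The motifs do not overlap. The letters were chosen after these promoters had been read, so the matches are a description. The stretches below run 5′ to 3′ on the strand of the gene, with both motifs in capitals. H2-Aa and H2-Eb1 are class II chains among the 10 genes, and H2-DMb1 encodes the beta subunit of DM.
H2-Aa, chr17:34287857-34287917, minus strand: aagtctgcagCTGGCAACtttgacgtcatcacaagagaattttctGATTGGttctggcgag
H2-Eb1, chr17:34305763-34305822, plus strand: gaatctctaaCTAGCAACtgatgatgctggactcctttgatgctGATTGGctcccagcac
H2-DMb1, chr17:34153084-34153144, plus strand: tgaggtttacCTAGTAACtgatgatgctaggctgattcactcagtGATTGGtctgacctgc
The gap between the motifs was 27 bases in H2-Aa, 26 in H2-Eb1 and 27 in H2-DMb1. The ordered pair occurred in 17 of 32851 promoter windows (0.0517%), CTNGNAAC alone in 13.2% and GATTGG alone in 16.1%. The windows of Cd207, H2-DMa, Cd68, Lyz2 and Ptprc did not hold the pair, which says only that these letters are not in those windows.

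The libraries held 17157842 to 25344401 rounded counts. Levels are given as CPM, counts per 1000000 after TMM (trimmed mean of M values) scaling, on which 3 counts are worth 0.117 to 0.173 CPM. The keratinocyte markers Krt5 and Krt14 stood at 11196 to 15700 and 8847 to 11470 CPM, so the preparations were keratinocytes by these markers, and the 10 genes together came to 43.2 to 188 CPM. The counts of Gpr161 as a whole gene did not check the labels (log2 fold change −0.13, edgeR adjusted p 0.553), so differences are given as the libraries labelled knockout relative to those labelled control. Y-linked transcripts (Kdm5d, Uty, Eif2s3y and Ddx3y) were counted 5291 times in the control DE684 and 3311 times in the knockout DE685, and at most 3 times in any other library. Since 1 library of each group had them, the values of the 10 genes are also given within this split.

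None of the 10 genes passed the test between knockout and control. In the edgeR quasi-likelihood test across 15422 genes, 0 of the 9 genes that passed the filter on low counts had an adjusted p under 0.05, and 0 had an unadjusted p under 0.05. Across all genes tested, 1.6% had an adjusted p under 0.05 (1.24% higher in the knockout) and 19% an unadjusted p under 0.05. DESeq2 gave 0 of 9 by either count, where it called 5.89% of all genes after adjustment and 17% before, and limma-voom gave 0 of 9, where it called 1.58% and 19.5%. Lyz2 did not pass the filter. The 9 log2 fold changes were all above 0, against 49.3% of all genes tested, with a median of 0.51 against −0.0036 over all genes tested. The groups overlapped in CPM for all 10 genes, whereas 12.8% of the genes tested lay higher in the knockout without overlap. In such bulk samples, fewer cells of a type and less RNA per cell cannot be told apart.

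**Figure D1:**
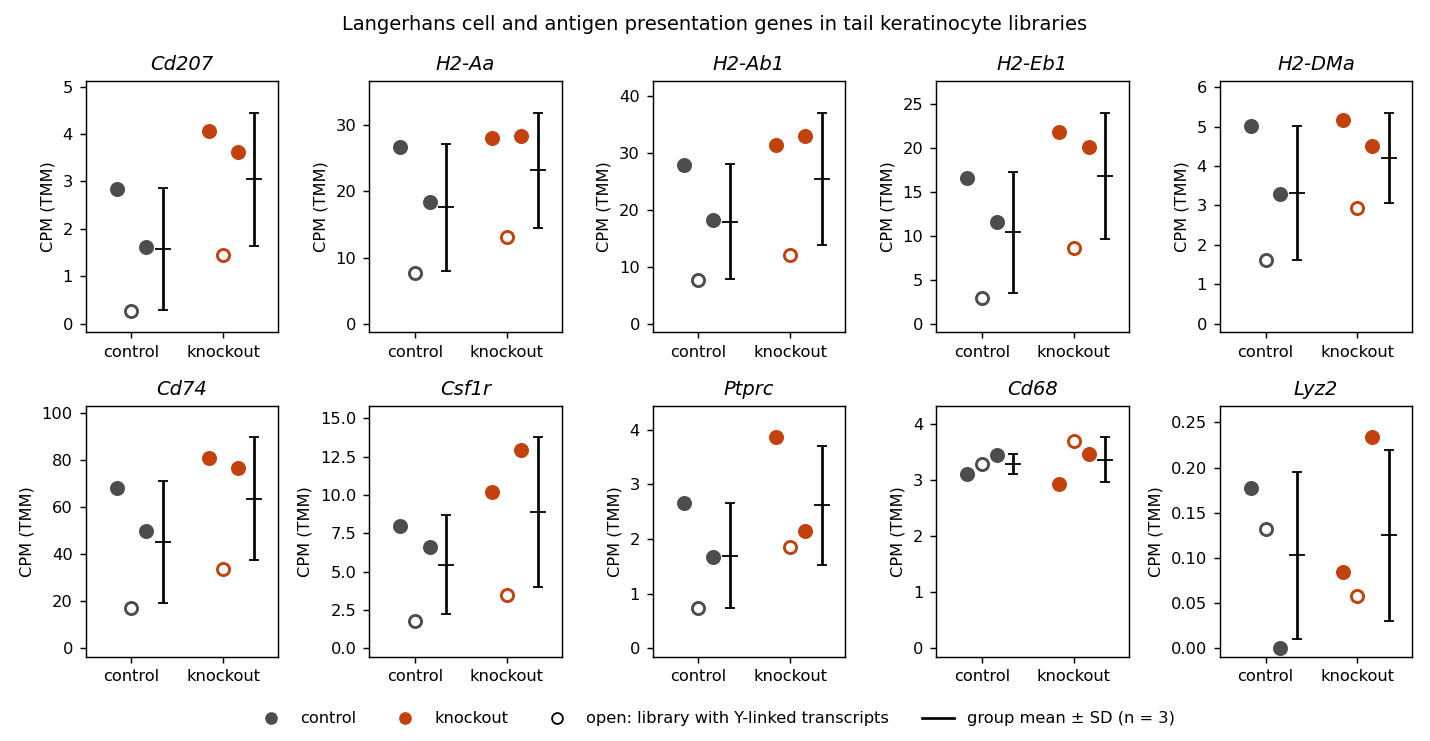
CPM of each of the 10 genes (vertical axes, linear, each panel on its own scale) in the 3 control and 3 knockout libraries, with the group mean ± SD beside the points; open symbols are DE684 and DE685, the libraries with Y-linked transcripts. In 8 of the 10 panels DE684 is the lowest point, and the groups overlap in every panel.

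Cd207 encodes langerin, the lectin that forms Birbeck granules and defines Langerhans cells (chromosome 6, 83671215 to 83677857, minus strand, GRCm38). The knockouts DE679, DE685 and DE688 had 4.07, 1.44 and 3.62 CPM of it, and the controls DE680, DE684 and DE689 had 2.84, 0.263 and 1.63 CPM. The lowest knockout library therefore lay below 2 of the 3 controls, and the lowest control lay apart from all others. The knockout mean was 3.04 ± 1.40 CPM and the control mean 1.58 ± 1.29 CPM (SD, 3 libraries each). The log2 fold change was 0.96 (SE 0.69, 95% confidence interval −0.64 to 2.56, edgeR adjusted p 0.488), an interval that runs from a 0.640-fold to a 5.91-fold level in the knockout. The value in DE684 rested on 6 counts, with an exact Poisson 95% interval of 0.0966 to 0.573 CPM, which covers counting error only. That interval lay below those of the other 5 libraries, the nearest of which began at 0.935 CPM in DE685.

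H2-Aa, H2-Ab1 and H2-Eb1 encode class II chains, the alpha and beta chains of I-A and the beta chain of I-E. H2-Ab1 (chromosome 17, 34257689 to 34269419, plus strand) had 31.3, 12.1 and 32.8 CPM in knockouts DE679, DE685 and DE688, and 27.9, 7.63 and 18.2 CPM in controls DE680, DE684 and DE689, with means of 25.4 ± 11.6 and 17.9 ± 10.1 CPM (SD). H2-Aa (chromosome 17, 34282744 to 34287823, minus strand) had 28.1, 13.2 and 28.3 CPM in the same knockout libraries, against 26.8, 7.68 and 18.3 in the controls. H2-Eb1 (chromosome 17, 34305867 to 34316674, plus strand) had 21.8, 8.61 and 20.1 CPM against 16.6, 2.98 and 11.6. For all 3 chains DE679 and DE688 were the 2 highest libraries, DE684 was the lowest and DE685, a knockout, came next above it. The log2 fold changes were 0.51 for H2-Ab1 (SE 0.49, interval −0.61 to 1.64), 0.41 for H2-Aa (SE 0.44, interval −0.61 to 1.42) and 0.70 for H2-Eb1 (SE 0.56, interval −0.59 to 2.00). Their edgeR adjusted p-values were 0.604, 0.653 and 0.532.

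Cd74 (chromosome 18, 60803848 to 60812652, plus strand) had the highest CPM of the 10 genes. It stood at 80.9, 33.7 and 76.5 CPM in knockouts DE679, DE685 and DE688, and at 68.3, 17.02 and 50.1 CPM in controls DE680, DE684 and DE689, with means of 63.7 ± 26.1 and 45.1 ± 26.0 CPM (SD). The order of the libraries was that of H2-Eb1, and the log2 fold change was 0.50 (SE 0.49, interval −0.63 to 1.63, edgeR adjusted p 0.614). H2-DMa (chromosome 17, 34119541 to 34139101, plus strand), the alpha subunit of the peptide exchange factor DM, had 5.17, 2.95 and 4.51 CPM in DE679, DE685 and DE688, against 5.01, 1.62 and 3.29 in DE680, DE684 and DE689. Its control DE680 exceeded the knockout DE688, and the log2 fold change was 0.35 (SE 0.40, interval −0.57 to 1.28, edgeR adjusted p 0.667). The microRNA gene Mir5107 lies in an exon of Cd74 on the same strand, so reads there cannot be told apart by strand. Exons of H2-DMa overlap those of Brd2 on the opposite strand. The use of strand in counting is not given in the sources used here, so the count of H2-DMa is uncertain to that extent.

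Csf1r, the receptor through which Il34 and Csf1 sustain Langerhans cells and macrophages (chromosome 18, 61100598 to 61132149, plus strand), had 10.2 CPM in DE679, 3.47 CPM in DE685 and 12.95 CPM in DE688. Control DE680 had 7.99 CPM, DE684 1.80 CPM and DE689 6.62 CPM. DE679 and DE688 lay above every control and DE685 below 2 of the 3. The log2 fold change was 0.71 (SE 0.58, interval −0.64 to 2.06, edgeR adjusted p 0.546). Exons of Csf1r overlap those of Hmgxb3 on the opposite strand, with the same uncertainty. Ptprc, which encodes the pan-leukocyte phosphatase CD45 (chromosome 1, 138062861 to 138175708, minus strand), had 3.86, 1.85 and 2.14 CPM in DE679, DE685 and DE688, against 2.66, 0.746 and 1.67 in DE680, DE684 and DE689. For Ptprc DE688 stood at 55.4% of DE679 and below the control DE680. Its log2 fold change was 0.63 (SE 0.48, interval −0.47 to 1.74, edgeR adjusted p 0.504).

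Cd68 and Lyz2 are genes known for high expression in macrophages. Cd68 did not share the order of libraries described above, and Lyz2 was too low to show one. Cd68, a glycoprotein of lysosomes (chromosome 11, 69664213 to 69666153, minus strand), had 2.93, 3.70 and 3.46 CPM in DE679, DE685 and DE688, against 3.11, 3.29 and 3.45 in DE680, DE684 and DE689. The lowest library stood at 79.1% of the highest, and DE685 and DE684 were not low. The log2 fold change was 0.032 (SE 0.19, interval −0.41 to 0.47, edgeR adjusted p 0.947), an interval from 0.753-fold to 1.39-fold. Lyz2, a secreted lysozyme (chromosome 10, 117277331 to 117282321, minus strand), had 2, 1 and 6 counts in DE679, DE685 and DE688, and 4, 3 and 0 counts in DE680, DE684 and DE689. The 0 in DE689 allows up to 0.119 CPM. Lyz2 was thus at or near the limit of detection in all 6 libraries, and reads can be shared with its near-identical neighbour Lyz1.

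The 10 genes were present at very unequal levels. Per kilobase of exon, from the union of GENCODE M21 exons, the mean over 6 libraries was 32.4 CPM for Cd74, 8.43 for H2-Ab1, 7.02 for H2-Eb1 and 5.37 for H2-Aa. It was 2.64 for Cd68, 1.52 for Cd207, 1.24 for Csf1r, 1.09 for H2-DMa, 0.118 for Ptprc and 0.0868 for Lyz2. The union counts every annotated exon, so a gene with long minor isoforms is placed too low. Within libraries, Cd74 exceeded H2-Ab1 in 6 of 6, H2-Ab1 exceeded H2-Eb1 in 6 and H2-DMa exceeded Ptprc in 6. H2-Eb1 exceeded H2-Aa in 5 of 6 libraries, H2-Aa exceeded Cd68 in 5 and Cd68 exceeded Cd207 in 5. Cd207 exceeded Csf1r in 4 of 6, Csf1r exceeded H2-DMa in 3 and Ptprc exceeded Lyz2 in 4, so these neighbours did not keep 1 order.

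**Figure D2:**
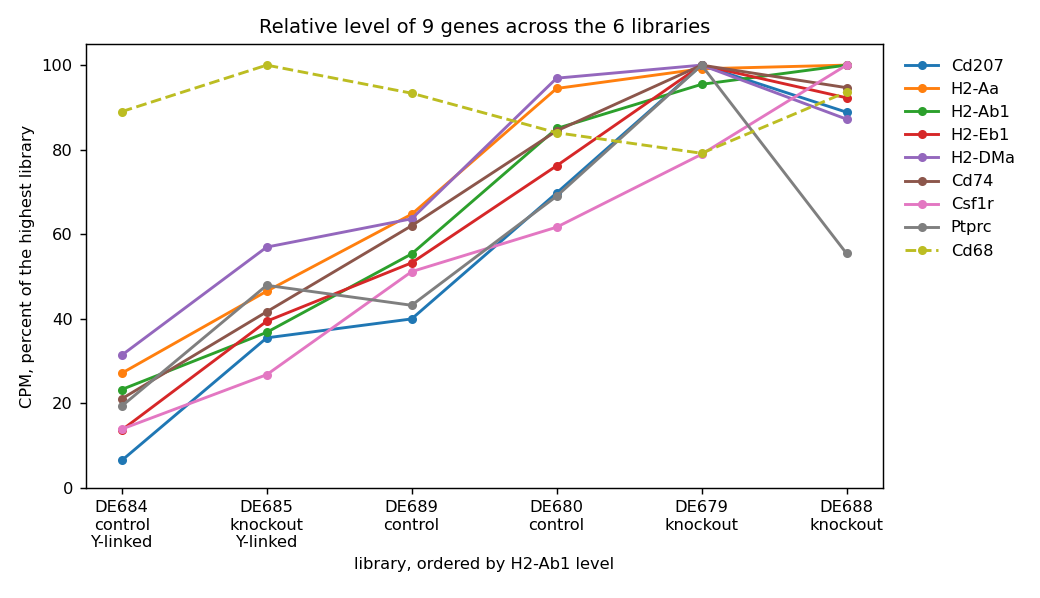
CPM of 9 genes in each library as a percent of that gene's highest library (vertical axis), with libraries ordered by H2-Ab1 along the horizontal axis; lines join the points of a gene as a guide, and Lyz2 is left out for its low counts. Cd74 and the class II chains climb together from DE684, where Cd74 stands at 21.1%, while Cd68 (dashed) stays between 79.1% and 100%.

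The spread within each group was large and was shared by most of the genes. DE684 was the lowest library for 8 of the 10 genes, DE679 the highest for 5 and DE688 the highest for 4. From the lowest to the highest library, H2-Ab1 spanned 4.30-fold, H2-Aa 3.69-fold, Cd74 4.75-fold, H2-Eb1 7.32-fold, Csf1r 7.20-fold and Cd207 15.5-fold. Taken relative to H2-Ab1 in the same library, the spread was narrower. The ratio of H2-Aa to H2-Ab1 varied 1.26-fold, from 0.863 in DE688 to 1.09 in DE685, and that of Cd74 varied 1.25-fold, from 2.23 in DE684 to 2.79 in DE685. The ratio of H2-Eb1 to H2-Ab1 was 0.596 to 0.713 in 5 libraries and 0.391 in DE684. For Cd207 it was 0.0895 to 0.130 in 5 libraries and 0.0345 in DE684, so DE684 was low in Cd207 beyond its low level of H2-Ab1. That value rested on 6 counts of Cd207, and H2-Eb1 was also low relative to H2-Ab1 in DE684. The ratio varied 1.67-fold for Csf1r, 1.78-fold for H2-DMa and 2.35-fold for Ptprc.

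The libraries with Y-linked transcripts were the low ones. DE684 and DE685 both lay below the other 4 libraries for 7 of the 10 genes: Cd207, H2-Aa, H2-Ab1, H2-Eb1, H2-DMa, Cd74 and Csf1r. Across all genes tested, 8.08% showed that order. Within the knockout, the mean of DE679 and DE688 was 2.14-fold to 3.34-fold the value in DE685 for these genes except H2-DMa, where it was 1.64-fold. Within the control, the mean of DE680 and DE689 was 2.56-fold to 8.48-fold the value in DE684, with Cd207 at the top. With 1 such library in each group, the part that sex, or any other feature of these libraries, plays was not tested. Krt1, a keratin of differentiating cells, moved with the same split in the other direction, at 4303 and 4159 CPM in DE684 and DE685 and 1563 to 2777 CPM elsewhere. The keratinocyte markers Krt10, Lor and Dsg1a did not show that split in full. They stood at 17304, 742 and 1787 CPM in DE685, against 17491, 881 and 2379 CPM in DE680, which lacks Y-linked transcripts. In DE684, however, Krt10 and Lor were the highest of the 6 libraries, at 25272.5 and 1053 CPM, and Dsg1a stood at 2257 CPM. The sum of the keratinocyte list was highest in DE684 and DE685, at 59126 and 51700 CPM, against 40674 to 50320 CPM elsewhere. The part of these keratinocyte genes in the result was not tested.

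Among the libraries without Y-linked transcripts, both knockouts exceeded both controls for Cd207, H2-Aa, H2-Ab1, H2-Eb1, Cd74 and Csf1r, where 25.2% of all genes tested did so. The ratio of the means was 1.72 for Cd207, 1.59 for Csf1r, 1.49 for H2-Eb1, 1.39 for H2-Ab1, 1.33 for Cd74 and 1.25 for H2-Aa. For H2-DMa, Ptprc, Cd68 and Lyz2 the values overlapped, with ratios of 1.17, 1.39, 0.974 and 1.79. Between DE685 and DE684, 1 library each, the ratio was 5.49 for Cd207, 2.89 for H2-Eb1, 1.98 for Cd74, 1.93 for Csf1r, 1.72 for H2-Aa and 1.58 for H2-Ab1. It was 2.48 for Ptprc, 1.81 for H2-DMa and 1.12 for Cd68, and Lyz2 had 1 count in DE685 and 3 in DE684. These ratios carry no replicate check.

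With the presence of Y-linked transcripts as a covariate, the estimates stayed inside the intervals given above and their errors were smaller for all but Cd68. The log2 fold change was 1.14 for Cd207 (SE 0.38), 0.83 for H2-Eb1 (SE 0.22), 0.74 for Csf1r (SE 0.17), 0.58 for Cd74 (SE 0.15), 0.53 for H2-Ab1 (SE 0.16) and 0.46 for H2-Aa (SE 0.16). The edgeR adjusted p-values in this fit were 0.155, 0.0900, 0.0711, 0.0851, 0.119 and 0.167 in that order. H2-DMa, Ptprc and Cd68 had log2 fold changes of 0.41 (SE 0.25), 0.70 (SE 0.36) and 0.030 (SE 0.20), with edgeR adjusted p of 0.386, 0.300 and 0.9504. Thus 0 of the 9 genes passed the threshold, where 2.65% of all genes were called. At an unadjusted p under 0.05, 6 of the 9 genes were higher, against 10.9% of all genes tested. In the 4 libraries without Y-linked transcripts the same count was 4 of 9 (H2-Ab1, H2-Eb1, Cd74 and Csf1r), against 9.23% of all genes, and 0 of 9 passed after adjustment, where 0.557% of all genes did. The 6 genes varied together across the libraries and are not independent of each other. The covariate was read from the libraries and not from the labels.

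**Figure D3:**
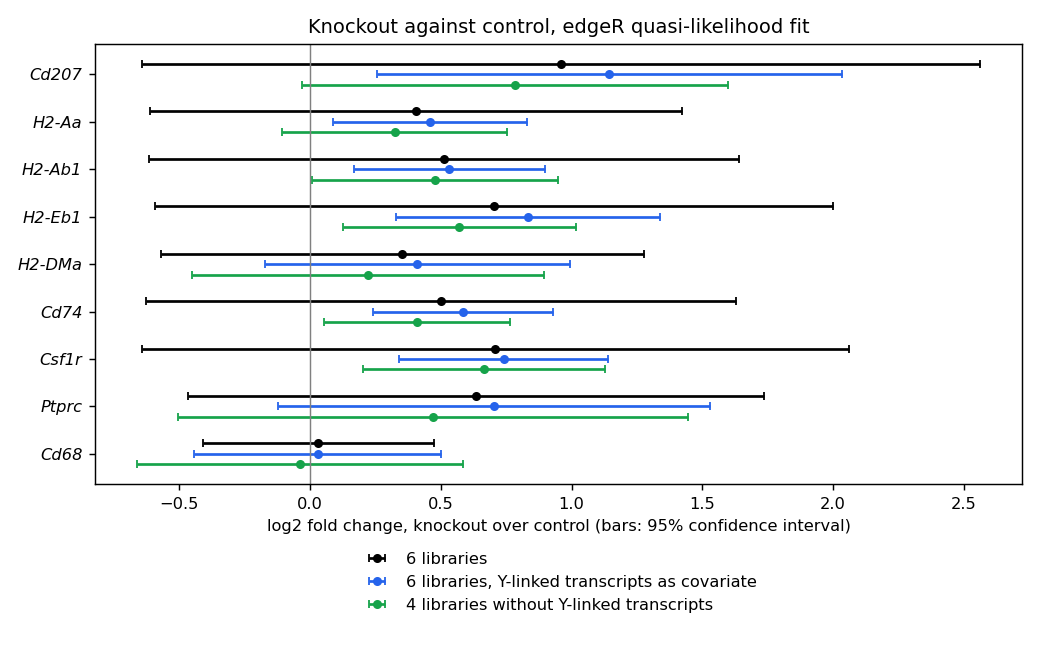
Log2 fold change of knockout over control (horizontal axis) for the 9 genes tested, with 95% confidence intervals, in the fit of all 6 libraries, in the fit with Y-linked transcripts as a covariate, and in the 4 libraries without them. Every interval of the fit of all 6 libraries spans 0, and with the covariate the intervals of 6 genes lie above 0 before adjustment for the number of genes tested.

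Other genes of Langerhans cells were read from a fixed list of 26, of which 21 were tested and 1 rose. Sirpa, an inhibitory receptor of myeloid cells, had 87.8, 67.3 and 72.7 CPM in DE679, DE685 and DE688, against 52.7, 51.8 and 49.8 in DE680, DE684 and DE689. Its log2 fold change was 0.56 (SE 0.10, edgeR adjusted p 0.0409), and it passed in 1 of 6 fits that left out a library, the fit without DE685. Sirpa did not share the drop in DE684, where Cd74 stood at 17.02 CPM and Cd207 at 0.263 CPM. It also lay far above Ptprc, which had 0.746 to 3.86 CPM. Which cells the Sirpa transcripts came from was not tested. The list's median was 0.15 with 15 genes above 0. The most abundant of its genes were Cdh1, Cd24a, Epcam and Ahr, which keratinocytes also express. Their log2 fold changes were 0.076, −0.034, 0.46 and 0.096, and none passed, though Epcam did with the Y-linked covariate. The ligands of Csf1r did not pass either: Csf1 stood at a log2 fold change of 0.40 (SE 0.15) and Il34 at 0.31 (SE 0.29), with edgeR adjusted p of 0.199 and 0.603. Il34 had 48.9, 33.2 and 54.2 CPM in the knockouts DE679, DE685 and DE688, against 40.2, 21.8 and 48.4 in the controls DE680, DE684 and DE689. DE684 and DE685 were again the 2 lowest libraries. The transcription factors of the myeloid lineage, Spi1 and Irf8, lay at 0.263 to 1.91 and 0.0877 to 1.09 CPM, lowest in DE684.

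Class II genes outside the 10 gave 14 tested of 20 listed, and 0 passed after adjustment. Their median log2 fold change was 0.16, with 11 above 0 and 4 higher at an unadjusted p under 0.05 (9.9% of all genes tested). H2-DMb1, whose promoter stretch is shown above, had 4.58, 3.06 and 5.60 CPM in DE679, DE685 and DE688, against 2.88, 0.834 and 2.38 CPM in DE680, DE684 and DE689. Its groups did not overlap, and the log2 fold change was 1.12 (SE 0.43, edgeR adjusted p 0.225). Reads can be shared with its near-identical neighbour H2-DMb2 (log2 fold change 0.53). Cd83, a surface protein of activated dendritic cells that was picked after its values were seen, had the highest estimate of the list, 1.88 (SE 0.53), at 0.428 to 1.04 CPM in the knockouts and 0.132 to 0.222 CPM in the controls. The coactivator Ciita had 1.48, 0.347 and 1.48 CPM against 1.46, 0.483 and 0.952, with DE685 and DE684 the lowest. By contrast, the abundant genes of the list, Ctsl, Nfyc, Nfya and Ifi30, had log2 fold changes from −0.061 to 0.19. Ctsl and Ifi30 encode enzymes of the endosome and lysosome, and Nfya and Nfyc encode subunits of NF-Y, which many cell types express. Both libraries with Y-linked transcripts were lowest for 9 of the 17 class II genes analysed, where 8.08% of all genes tested showed that order. The 9 include the regulators Rfxap, Rfxank, Nfyb and Nfyc with narrow gaps, for Nfyc 48.26 and 48.35 CPM against 50.34 to 52.31 CPM. They also include Cd86 and Cd40, which had at most 0.0877 CPM in DE684 and DE685, but not H2-DMb1. The same libraries were lowest for 7 of 25 Langerhans cell genes and for 1 of 20 class I genes. Of the lists described below, it was 5 of 14 leukocyte, 4 of 13 T cell, 3 of 18 macrophage and 1 of 8 fibroblast genes. For endothelial, melanocyte and keratinocyte genes it was 0 of 6, 0 of 6 and 0 of 8. These list counts include genes that did not pass the filter.

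MHC class I presents peptides from the cytosol in nearly all cells, keratinocytes included. Of 20 class I genes, 19 were tested and 1 rose: Psmb8, an immunoproteasome subunit, had 11.4, 8.14 and 9.49 CPM in DE679, DE685 and DE688, against 4.17, 3.77 and 4.64 in DE680, DE684 and DE689. The log2 fold change of Psmb8 was 1.21 (SE 0.17, edgeR adjusted p 0.0213), and it passed in 1 of 6 fits that left out a library, the fit without DE685. The list's median was 0.15. At an unadjusted p under 0.05, 8 of 19 genes were higher and 1 was lower, against 9.9% and 9.1% of all genes tested, and 9 lay higher without overlap, against 12.8% of all genes tested. The peptide transporter genes Tap1 and Tap2, chosen for mention after their values were seen, had log2 fold changes of 0.58 and 0.97 with an edgeR adjusted p of 0.0622 each. With the Y-linked covariate, Psmb8, Tap1 and Tap2 passed. Calr, Pdia3, Canx and H2-D1, the most abundant of the list, had log2 fold changes of 0.036, −0.24, −0.055 and 0.047.

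**Figure D4:**
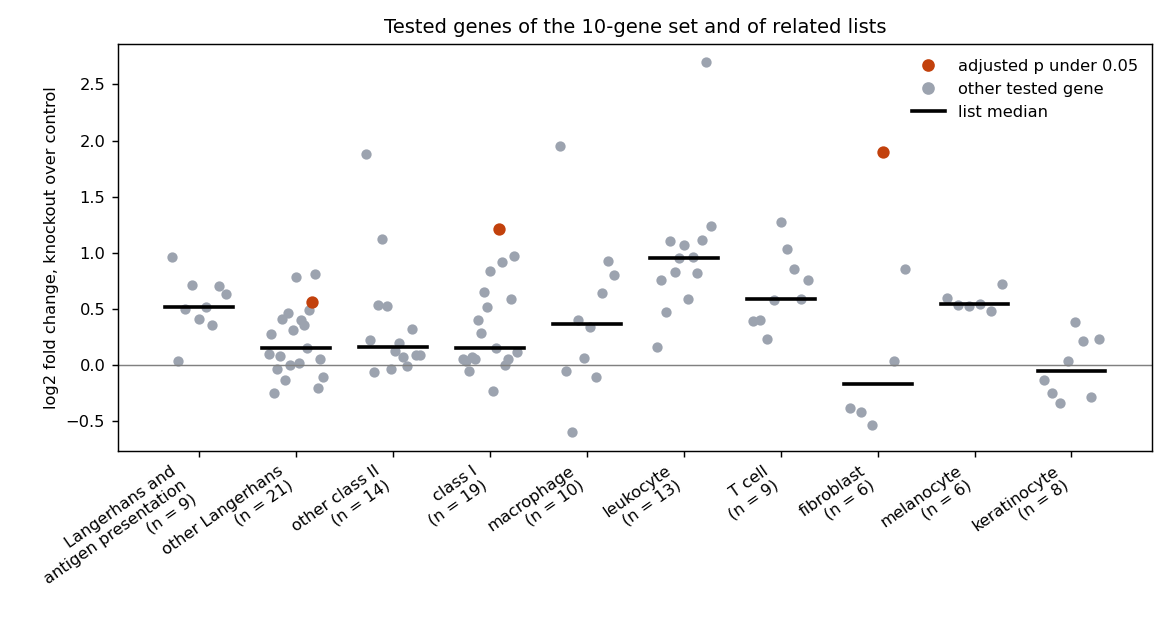
Log2 fold change of knockout over control (vertical axis) of every tested gene in the 10-gene set and in 9 related lists (horizontal axis, with the number tested), with the list medians as bars. Sirpa, Psmb8 and Dcn are the 3 genes with an adjusted p under 0.05, and the median of the leukocyte list is 0.95.

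Markers of other cells that epidermis can hold were read beside the 10 genes. In the list for leukocytes in general, 13 of 14 genes were tested, all 13 had log2 fold changes above 0 (49.3% of all genes tested) and the median was 0.95. After adjustment 0 passed, and 4 were higher at an unadjusted p under 0.05 (9.9% of all genes tested). Its summed level was 75.5 to 114 CPM in the knockout and 55.7 to 76.4 CPM in the control, most of it Arhgdib (log2 fold change 0.16). Laptm5, Lcp1 and Coro1a followed in abundance, with log2 fold changes of 0.82, 1.11 and 1.10. T cell genes gave 0 of 9 past the threshold, all 9 above 0 with a median of 0.58, and summed to 47.6 to 70.8 CPM in the knockout against 24.2 to 38.5 CPM in the control. Most of that sum was Thy1 (log2 fold change 0.85, edgeR adjusted p 0.0560), which fibroblasts also express and which passed with the Y-linked covariate. Trdc, Cd247 and Cd3g, markers of T cells, had 0.58, 0.39 and 0.23. The part of other leukocytes in the levels of Ptprc was not tested.

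Macrophage and monocyte genes gave 10 tested of 22, 0 past the threshold and a median of 0.37. Mertk, Fcgr3 and Csf2ra, among the most abundant of them, had log2 fold changes of 0.64, 0.34 and 0.40. Defining macrophage genes were near the limit of detection: C1qa, C1qb and C1qc did not pass the filter and stood at most at 0.700, 0.231 and 0.219 CPM, and Mrc1 at most at 0.222 CPM. Of the neutrophil list 2 genes were tested, Cxcr2 (−0.97) and Camp (0.43), and 0 of these passed. The 6 mast cell genes were absent from the deposited table, so they were not analysed.

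Of the non-immune lists, fibroblast genes gave 6 tested and 1 that rose, Dcn, a proteoglycan of the dermis, with 122, 112 and 123 CPM in DE679, DE685 and DE688 and 20.8, 40.6 and 34.4 CPM in DE680, DE684 and DE689 (log2 fold change 1.90, SE 0.21, edgeR adjusted p 0.00782). The collagen genes Col1a1 and Col1a2 had −0.38 and −0.42 and did not pass. The fibroblast sum was 173 to 186 CPM in the knockout and 62.0 to 98.3 CPM in the control. Most of that sum was Dcn and Thy1, and Thy1 is also on the T cell list. The list's median log2 fold change was −0.17, with 3 genes above 0 and 3 below. Melanocyte genes gave 0 of 6 past the threshold with a median of 0.54 and sums of 79.2 to 117 CPM against 54.0 to 78.9 CPM. Their most abundant genes Dct, Pmel, Mitf and Tyrp1 had log2 fold changes of 0.60, 0.54, 0.53 and 0.72. Endothelial genes gave 0 of 5 with a median of −0.39, and their sums were 3.99 to 4.90 CPM against 4.28 to 7.19 CPM. Pecam1, Vwf, Kdr and Tek were the most abundant, at −0.39, 0.70, −1.06 and −0.0034. Keratinocyte genes gave 0 of 8 with a median of −0.055 and sums of 42803 to 51700 CPM against 40674 to 59126 CPM. Krt10, Krt5, Krt14 and Krt1 had −0.34, 0.21, 0.029 and −0.25. The part of these cells in the levels of the 10 genes was not tested.

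The genes whose log2 CPM followed the mean of the standardized levels of the 9 tested genes most closely over the 6 libraries were Rab27a, Fes, Use1, Cyp2f2, Zfp672 and Fbxl19, with Pearson correlations of 0.992, 0.991, 0.988, 0.987, 0.984 and 0.983. They were taken as the highest of 13670 genes over 6 libraries, where 60 genes exceeded 0.95, so such values are a result of the choice. Rab27a, a regulator of vesicle transport, had 23.5, 18.4 and 23.3 CPM in DE679, DE685 and DE688, against 21.6, 13.6 and 18.5 in DE680, DE684 and DE689. Fes, a tyrosine kinase known from myeloid cells, had 3.01, 2.19 and 3.31 CPM against 2.88, 1.45 and 2.30. None of the 6 passed the threshold between knockout and control, with edgeR adjusted p from 0.421 to 0.689.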

How the data were processed

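Polyadenylated RNA of 6 tail keratinocyte samples was made into stranded libraries, per the labels' protocols. The submitters' processing notes name bcl2fastq 2.20, cutadapt 1.18, STAR 2.7.0f, Partek and the build mm10, without roles; the counting tool and its use of strand are not given in the sources used here. The authors deposited estimated counts per gene, 53.0% to 57.7% of them whole per library, and a normalized signal per gene, used for an alternative. Estimated counts were rounded. The test had been laid out for counts and was kept. Low counts were removed with filterByExpr, libraries were scaled with TMM factors and fitted with glmQLFit and glmQLFTest (edgeR 4.0.16), with Benjamini-Hochberg adjustment over all genes and a threshold of 0.05. SEs were obtained from each fold change with its F value. With 3 against 3, an exact permutation test cannot go below 0.1. Intervals and floors cover counting error only where said to be Poisson. Gene coordinates are those of GENCODE M21 (GRCm38), which matched 18904 of the 19142 shared symbols to within 1 base.

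The 10 genes and the lists were chosen with earlier results of these data known. The named genes are the 10, every list gene with an adjusted p under 0.05, the 4 most abundant of each list and the 6 genes most alike; others named were chosen after their values were seen. Some results under this rule are not reported here. Alternatives were scaling by RLE or by upper-quartile factors, testing without a filter or with a minimum mean of 1 CPM, DESeq2 1.42.0, limma-voom, limma on log2 of the authors' normalized signal plus 1 (limma 3.58.1), a covariate for Y-linked transcripts, each library left out, and, chosen after seeing the data, the 4 libraries without Y-linked transcripts. The fit was tested on simulated data.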

Additional observations from a re-analysis of the deposited data

How the results depend on the processing

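The number of the 10 genes with an adjusted p under 0.05 was 0 under all 15 alternatives. The log2 fold changes of Cd207, H2-Aa, H2-Ab1, H2-Eb1, H2-DMa, Cd74, Csf1r and Ptprc stayed above 0 in all of them. Cd68 reversed from 0.032 to −0.0075 without DE680, −0.040 without DE685 and −0.039 in the 4 libraries without Y-linked transcripts, and its highest value was 0.13, without DE679. Single libraries set the sizes: leaving out DE684 lowered Cd207 to 0.46, H2-Aa to 0.048, H2-Ab1 to 0.15, H2-Eb1 to 0.26, H2-DMa to 0.028, Cd74 to 0.11, Csf1r to 0.29 and Ptprc to 0.28, and leaving out DE680 raised them, Cd207 to 1.68. Ptprc was lowest, at 0.25, without DE679. The number of genes called among all tested was 247, against 872 with DESeq2, 409 with the Y-linked covariate, 87 in the 4 libraries and 69 to 121 with a library left out. Over the related lists it was 3, against 17 with DESeq2, 8 with the Y-linked covariate, 1 in the 4 libraries and 1 to 3 with a library left out. Thy1 also passed with upper-quartile factors, and Epcam, Thy1, Tap1, Tap2, Mertk, Lcp1, Pdia3 and Pmel passed with DESeq2. Axl, H2-T23, Krt15, Psmb9, Rac2 and Trp63 passed with DESeq2 as well. Ly6c2 passed without DE688, and Tap1 and Tap2 passed without DE689. The cause of these differences was not tested, and the fits that left out libraries also rested on fewer of them. No paired analysis was possible because the columns carry no replicate numbers. Depth limits Lyz2, at 0 to 6 counts, and Cd207 in DE684, at 6.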

Other observations

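Some leukocyte genes outside the 10 were high in DE679 and DE685, where class II genes were high in DE679 and DE688. Ly6c2, a surface protein of inflammatory monocytes, had 2.84 and 1.73 CPM in DE679 and DE685 and at most 0.175 CPM in the other 4 libraries. Ccr2, the receptor by which monocytes enter tissue, had 2.33 and 1.502 CPM there and at most 0.577 CPM elsewhere. Rac2, a GTPase of blood cells, had 3.31 and 1.502 CPM and at most 0.506 CPM elsewhere. The knockout DE688 had 0.156, 0.389 and 0.506 CPM of the 3, within the control range for Ly6c2 and Ccr2 and above it for Rac2. The edgeR adjusted p for knockout against control was 0.1996 for Ccr2 and 0.107 for Rac2, and Ly6c2 did not pass the filter on low counts. Rac2 passed with DESeq2, and Ly6c2 was tested and passed in the fit without DE688. These genes were picked after their values were seen.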
